A study of Homo sapiens with 4 samples.

Results

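The genes described are FASN and 6 further genes of fatty acid and cholesterol synthesis, namely ACACA, ACLY, SCD, SREBF1, SREBF2 and HMGCS1. They were chosen by name, and a crosslink site was taken as theirs where the deposited gene label held the exact symbol. These 7 genes, of 14387 genes labelled in either list, held 423 of 158922 PDCD4 sites and 204 of 111361 IgG sites. All 7 were found in both lists, and none of their sites carried the label of a further gene. The sites came from iCLIP, in which UV light ties a protein to the RNA it touches, an antibody pulls the protein down and cDNA ends mark the nucleotide in contact. Both groups were wild-type MCF10A, a non-tumorigenic line of human breast epithelium, grown with 5% horse serum, 20 ng/ml EGF, 10 µg/ml insulin, 500 ng/ml hydrocortisone and 10 ng/ml cholera toxin, so the lipogenic hormone insulin was present in both. The groups differed in the antibody, PDCD4 (2 replicates) or isotype control IgG (2 replicates), and the question was which RNAs were bound by PDCD4 above that control. The authors pooled the replicates into 1 list per antibody, so the spread among replicates is unknown. The groups could therefore not be tested against each other, and every interval below is a 95% interval that covers counting error only. Each list holds only sites that the authors called, and cDNAs at other positions are missing from every sum, ratio and interval.

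PDCD4 is an RNA-binding protein and tumour suppressor known for its contact with the translation initiation factor eIF4A. In lipid synthesis, ACLY cleaves cytosolic citrate to acetyl-CoA, ACACA carboxylates it to malonyl-CoA, FASN joins these units into palmitate, and SCD introduces a double bond into the saturated product. HMGCS1 takes acetyl-CoA into the mevalonate route to cholesterol. SREBF1 and SREBF2 encode the membrane-bound transcription factors that turn on these enzymes when sterols are low or insulin is present, SREBF1 mainly for fatty acids and SREBF2 mainly for cholesterol.

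The sequences at the strongest PDCD4 sites are given first, since they show which part of each RNA was contacted. The score of a site is the number of cDNAs counted there. All 8 FASN sites with a score greater than 5 are shown on the transcribed strand, 5′ to 3′ in DNA letters of GRCh38, with the listed nucleotide as the capital letter in the middle of 29 nt. The first 2 listed nucleotides of exon 42 are neighbours, so their windows overlap.
FASN, score 11, coding sequence of exon 42 (chr17:82079531-82079559, minus strand): ccgccgtggacctgAtcatcaagagccac
FASN, score 8, intron (chr17:82086661-82086689, minus strand): cctcagctatttctCatcctgtgggcaga
FASN, score 7, coding sequence of exon 42 (chr17:82079530-82079558, minus strand): cgccgtggacctgaTcatcaagagccacc
FASN, score 7, coding sequence of exon 16 (chr17:82088457-82088485, minus strand): tcatcaagtgggacCacagcctggcctgg
FASN, score 6, coding sequence (chr17:82080478-82080506, minus strand): tggccggctactccTacggggcctgcgtg
FASN, score 6, coding sequence (chr17:82080536-82080564, minus strand): ctggctgcctactaCatcgactgcatcag
FASN, score 6, coding sequence (chr17:82080742-82080770, minus strand): atcgagggctccacCaccgtgttccacag
FASN, score 6, coding sequence (chr17:82081725-82081753, minus strand): cccagcgcatggcgTcctgcctggaggtg
Of these 8 sites, 7 lay in coding sequence, and the listed nucleotide was C at 4, T at 3 and A at 1. The IgG list held no nucleotide inside any of the 8 windows.

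The other members had few sites of this height. The sites with a score greater than 5 in SCD and SREBF2 are shown in the same way, together with the highest site of ACACA, ACLY and SREBF1, none of which passed that score. HMGCS1 had 1 site with a score of 6, in an intron, which is not shown. ACACA had 2 sites at its highest score, ACLY 7 and SREBF1 3, and the first of each is printed.
SREBF2, score 7, coding sequence (chr22:41867022-41867050, plus strand): caggtcacattaccTtccttctctccctc
SREBF2, score 6, coding sequence (chr22:41867087-41867115, plus strand): ggtttctcccacctCagttcccaccacac
SREBF2, score 6, intron (chr22:41902240-41902268, plus strand): gtgtgccactgcgaGccgggtgggcagcc
SCD, score 7, 3′UTR (chr10:100361122-100361150, plus strand): attatttcttctctTatcctctctctctt
SCD, score 6, 3′UTR (chr10:100363321-100363349, plus strand): tgtacactaccaaaCactcagtccactgt
ACACA, score 5, 3′UTR (chr17:37086822-37086850, minus strand): agtccattgtttatTaccccgactcttag
ACLY, score 4, coding sequence (chr17:41873908-41873936, minus strand): gttcatgaccagcaTctgcgatgagcgag
SREBF1, score 4, intron (chr17:17813989-17814017, minus strand): gtgtggtaggatccCtttggaggccctgc
The upper SREBF2 and SCD sites lay in pyrimidine-rich stretches, whereas the FASN windows were mostly GC-rich. The 29 nt from each of the SCD sites onwards occurred 2 times in the genome, so the origin of these reads is uncertain.

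FASN (ENSG00000169710) lies on chr17:82078338-82098294, minus strand, and encodes the multifunctional fatty acid synthase in 43 exons. In the PDCD4 list, 116 FASN sites summed to 371 cDNAs, with a mean score of 3.20. In the IgG list, 11 sites summed to 36 cDNAs, with a mean score of 3.27. The mean scores were thus similar and the number of sites differed, but a mean score depends on the lowest score listed. A FASN site with no other within 20 nt had a score of at least 4 in PDCD4 and at least 3 in IgG. The highest score was 11 in PDCD4 and 4 in IgG, and 13 PDCD4 sites but 0 IgG sites had a score of 1. As a share of all cDNAs of a list, FASN was 6.78-fold higher in PDCD4, a log2 ratio of 2.76 (2.30 to 3.33), computed with a pseudocount of 1. FASN stood at rank 57 from the top among 3977 genes with at least 50 cDNAs over both lists, and at rank 19 of 1796 genes with at least 100. At scores greater than 5 it had 57 cDNAs at 8 sites against 0 in IgG, which is at least 4.89-fold higher with a floor of 3 counts.

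No other member reached a 2-fold ratio (log2 of at least 1) over all its sites. Thus 1 of 7 members was 2-fold higher in PDCD4, while 18.8% of the 9585 genes with at least 10 cDNAs were, and the median of those genes was -0.08. No member was 2-fold higher in IgG, against 18.1% of all genes. The lowest score listed for a site with no other within 20 nt was higher in PDCD4 than in IgG for FASN (4 and 3) and SREBF1 (3 and 2). The counts of members were not corrected for this. With sites in place of cDNAs the count was 2 of 7 (FASN and SREBF2) beside 14.8% of genes, and with sites within 20 nt merged the same 2 of 7 beside 13.3%. At scores greater than 5 it was 2 of 3 (FASN and SCD) beside 52% of 394 genes, where SCD rests wholly on the 2 sites of uncertain origin, and at scores greater than 10 it was 0 of 1 beside 4.92% of 61. RNA abundance was not analysed here, so a difference in the number of cells with an RNA, in RNA per cell and in contact per RNA cannot be told apart for any gene. Both lists were made from the same cell line and medium.

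Of the enzymes beside FASN, ACLY (ENSG00000131473, chr17:41866917-41930542) had 172 PDCD4 cDNAs at 67 sites and 92 IgG cDNAs at 36 sites, a log2 ratio of 0.33 (-0.04 to 0.72). ACACA (ENSG00000278540, chr17:37084992-37406836) had 207 cDNAs at 89 sites against 177 at 82, a log2 ratio of -0.34 (-0.64 to -0.04). SCD (ENSG00000099194, chr10:100347233-100364826) had 147 cDNAs at 52 sites against 103 at 31, a log2 ratio of -0.06 (-0.43 to 0.32). These enzymes act before and after FASN in the same route, and the interval of none of them overlapped that of FASN. HMGCS1 (ENSG00000112972, chr5:43287470-43313512) had 33 cDNAs at 11 sites against 23 at 8, a log2 ratio of -0.07 with a wide interval (-0.86 to 0.79).

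The 2 transcription factor genes differed in depth. SREBF2 (ENSG00000198911, chr22:41833105-41907306) had 199 cDNAs at 72 sites, with a log2 ratio of 0.97 (0.58 to 1.40) over the 68 cDNAs at 24 sites in IgG. SREBF1 (ENSG00000072310, chr17:17810399-17837002) had 51 cDNAs at 16 sites against 28 at 12, a log2 ratio of 0.27 (-0.40 to 1.02). Its PDCD4 sites all had a score of at least 3, while its IgG list held sites with a score of 2. The SREBF1 ratio thus sets sums with unequal lowest scores against each other. Mean scores of the 6 genes other than FASN ranged from 2.33 to 3.19 in PDCD4 and from 2.16 to 3.32 in IgG. The intervals of SREBF1 and SREBF2 overlapped, and the difference between them was not detectable at this depth. Summed over the 7 genes, 1180 PDCD4 cDNAs stood against 527, a log2 ratio of 0.59 (0.45 to 0.75). Without FASN the sums were 809 and 491, and the log2 ratio was 0.15 (-0.01 to 0.32).

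**Figure D1:**
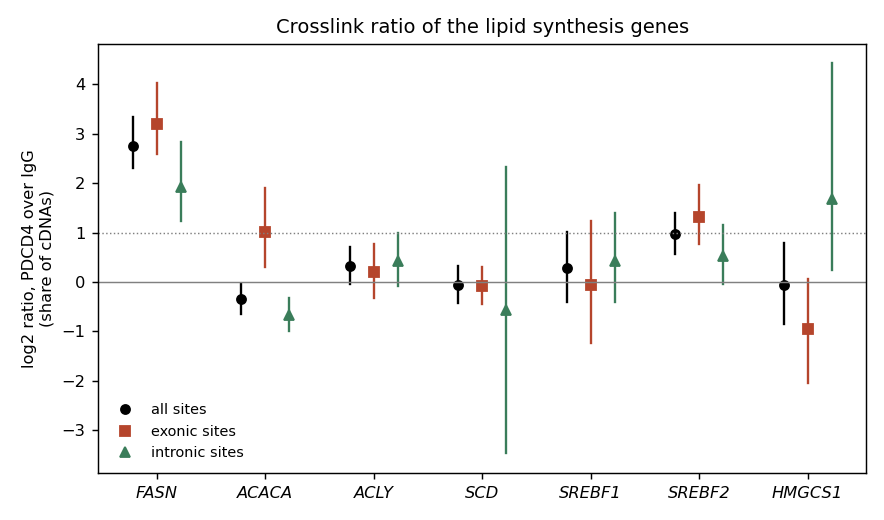
Log2 ratio of the PDCD4 over the IgG share of cDNAs for each gene, over all sites (circles), exonic sites (squares) and intronic sites (triangles); bars are 95% counting intervals, the solid line is 0 and the dotted line is 1. FASN lies above the dotted line in each class (2.76, 3.20 and 1.92), and ACACA is above it over exonic sites (1.02) and below 0 over intronic sites (-0.66).

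The ratios were then split into exonic and intronic sites. Exonic sites can come from mature or unspliced RNA, which cannot be told apart here. Over exonic sites FASN had 271 cDNAs against 19, a log2 ratio of 3.20 (2.60 to 4.02). SREBF2 followed with 121 against 32, a log2 ratio of 1.32 (0.78 to 1.96), and ACACA with 59 against 19, a log2 ratio of 1.02 (0.30 to 1.90). So 3 of 7 members were 2-fold higher over exons, a share read against 33.7% of 6514 genes and a median of 0.43. ACLY (79 against 46), SCD (141 against 100) and SREBF1 (16 against 11) had exonic log2 ratios of 0.20, -0.08 and -0.07. HMGCS1 had the lowest, with 15 cDNAs against 20 and a log2 ratio of -0.96 (-2.05 to 0.06).

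Over intronic sites FASN had 100 cDNAs against 17, a log2 ratio of 1.92 (1.24 to 2.82), where the median of 6911 genes was -0.54 and 12.5% were 2-fold higher in PDCD4 and 30.3% in IgG. ACACA, a gene with very long introns, had 148 against 158, a log2 ratio of -0.66 (-0.995 to -0.33). Its exonic and intronic ratios lay on opposite sides of 0, with intervals that did not overlap. The medians of the counted genes were split in the same way, at 0.43 over exonic and -0.54 over intronic sites, so this is not particular to ACACA. HMGCS1 had 18 intronic cDNAs against 3, a log2 ratio of 1.68 (0.24 to 4.42), and 6 of the 18 came from 1 site whose following 29 nt recur in the genome. ACLY (93 against 46), SREBF1 (35 against 17) and SREBF2 (78 against 36) had intronic log2 ratios of 0.43, 0.43 and 0.53, and SCD had 3 intronic cDNAs in either list. Of the 6 members with at least 10 intronic cDNAs, FASN and HMGCS1 passed a 2-fold ratio.

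Exonic levels of the 7 genes were compared per length of mature transcript. The cDNAs counted lay in exons of any transcript of the gene, while the length was that of its single chosen transcript. Exons of that transcript held 106 of 121 PDCD4 cDNAs in SREBF2 and 57 of 59 in ACACA. They held 12 of 16 in SREBF1 and 9 of 15 in HMGCS1. In IgG they held 29 of 32 in SREBF2, 17 of 19 in ACACA and 9 of 11 in SREBF1. In the remaining cases they held all exonic cDNAs. In the PDCD4 list FASN had 32.0 exonic cDNAs per kb (28.3 to 36.1), SCD 26.9 (22.6 to 31.7), SREBF2 23.1 (19.2 to 27.6) and ACLY 18.4 (14.6 to 22.9). Neighbours in this order had overlapping intervals, while FASN and SREBF2 did not overlap. The place of SCD depends on sequence that recurs in the genome: without such sites it had 16.6 (13.3 to 20.5) in PDCD4 and 14.5 in IgG, below SREBF2 and ACLY in PDCD4, and FASN had 30.4. A lower tier held ACACA with 5.89 (4.49 to 7.60), SREBF1 with 3.26 (1.87 to 5.30) and HMGCS1 with 2.80 (1.57 to 4.62). In the IgG list the order was another one. SCD came first with 19.1 exonic cDNAs per kb, ACLY had 10.7, SREBF2 6.11, HMGCS1 3.74, FASN and SREBF1 2.24 each and ACACA 1.90. FASN was thus the densest of the 7 transcripts in the PDCD4 list and among the 3 sparsest in the IgG list. The full transcript length was used, although sites were rare near the 3′ ends of exons, as described below. Coding positions outside that exon-end window were 5073 of 7533 in FASN and 2343 of 3423 in SREBF2. They were 3956 of 7149 in ACACA, 1713 of 3303 in ACLY and 810 of 1077 in SCD. In SCD the last exon alone held 4093 of 5245 nt. How far exon structure set this order was not tested.

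**Figure D2:**
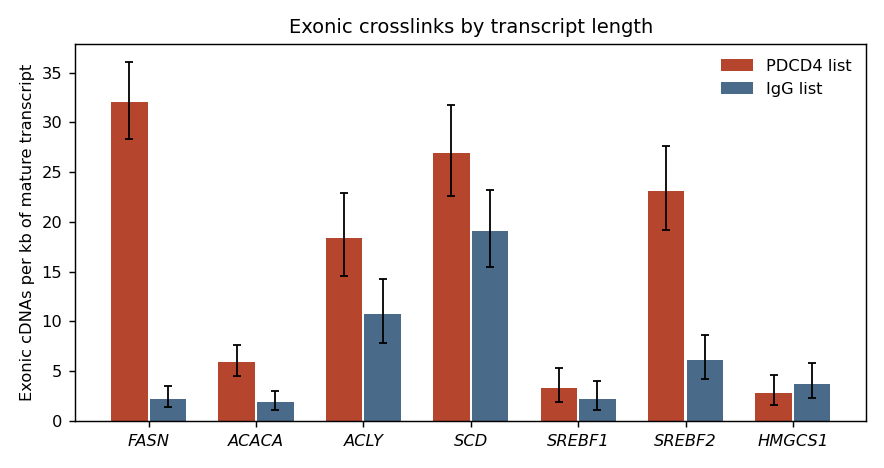
Exonic cDNAs, in exons of any transcript, per kb of mature transcript for each gene in the PDCD4 list (red) and the IgG list (blue). Error bars are exact 95% counting intervals, and the lists differ in total depth (409308 and 276139 cDNAs). FASN has 32.0 in PDCD4 and 2.24 in IgG, whereas SCD is high in both (26.9 and 19.1).

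The region of the transcript in which the cDNAs lay also differed among the genes. In FASN, 237 of 371 PDCD4 cDNAs lay in coding sequence, a share of 63.9% (58.9% to 68.6%, Wilson), with 27.0% in introns and 9.16% in the 3′UTR. The median coding share of the 797 genes with at least 100 PDCD4 cDNAs was 15.5%, and 59 of them, FASN included, were at or above its share. In the IgG list 44.4% (29.5% to 60.4%) of the FASN cDNAs were coding, an interval that overlaps that of PDCD4. Coding cDNAs of FASN numbered 237 against 16, a log2 ratio of 3.24 (2.59 to 4.15), and those of its 3′UTR 34 against 3.

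SCD was mainly a 3′UTR signal, with 77.6% of its PDCD4 cDNAs there and 79.6% of its IgG cDNAs. The 3′UTR counts were 114 against 82, a log2 ratio of -0.10, and the coding counts 24 against 9, a log2 ratio of 0.75. Of its 52 PDCD4 sites, 18, with 57 cDNAs, were followed by 29 nt that occur again in the genome, as were 9 of its 31 IgG sites. SCD was also the gene in which all 3 positions shared by the lists within these genes were found.

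ACACA cDNAs were mainly intronic, with 71.5% (65.0% to 77.2%) in PDCD4 and 89.3% (83.8% to 93.0%) in IgG. Intron 3, of 45202 nt, held the most in either list, 34 PDCD4 and 33 IgG cDNAs. The smaller exonic part was spread over coding sequence (29 against 11) and 3′UTR (28 against 8). ACLY cDNAs were intronic for 54.1% in PDCD4 and 50% in IgG, with 38 against 14 in coding sequence and 39 against 32 in the 3′UTR. The highest single IgG site of these genes, with a score of 9, lay in the ACLY 3′UTR, where no PDCD4 site passed a score of 4.

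SREBF2 had 65 coding cDNAs against 14, a log2 ratio of 1.57 (0.80 to 2.60), and 45 against 15 in the 3′UTR. SREBF1 had 68.6% of its PDCD4 cDNAs in introns and only 3 coding cDNAs against 7 in IgG. Intron 1 of SREBF1, of 16205 nt, held 31 of the 35 intronic cDNAs. The pooled coding cDNAs of the 6 members other than FASN were 162 against 64, a log2 ratio of 0.76 (0.35 to 1.21), which is higher than their ratio over all regions. Both SREBF genes also host a microRNA of the miR-33 family, known to act on cholesterol export. Neither list held a site in the hairpins of MIR33A, MIR33B or MIR6777, and the nearest PDCD4 site was 72 nt from MIR33B and 547 nt from MIR33A.

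Along the FASN mRNA, PDCD4 sites were found in 22 of 43 exons and IgG sites in 3. Exon 43, which holds the end of the coding sequence and the 3′UTR, had 47 cDNAs at 18 sites over 943 nt. Exon 16 had 32 cDNAs at 10 sites over 173 nt, and exon 42 had 31 cDNAs at 6 sites over 252 nt. With the coding sequence cut into 10 equal parts from the start codon on, the PDCD4 cDNAs per part were 24, 11, 12, 36, 12, 11, 9, 34, 27 and 61. The fourth, the eighth and the last part were thus the densest, with 82.0, 75.1 and 116 cDNAs per 1000 positions at least 60 nt from an exon end. The last 5 parts held 142 of 237 coding cDNAs, 59.9% (53.6% to 65.9%), on 2566 of 5073 such positions. SREBF2 had the other arrangement, with 10 of 65 coding cDNAs in its last 5 parts, 15.4% (8.58% to 26.1%), and 28 in the first part. In the IgG list the last 5 parts held 9 of 16 coding cDNAs of FASN (56.25%, 33.2% to 76.9%). For SREBF2 they held 3 of 14 (21.4%, 7.57% to 47.6%), and both IgG intervals overlap those of PDCD4.

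**Figure D3:**
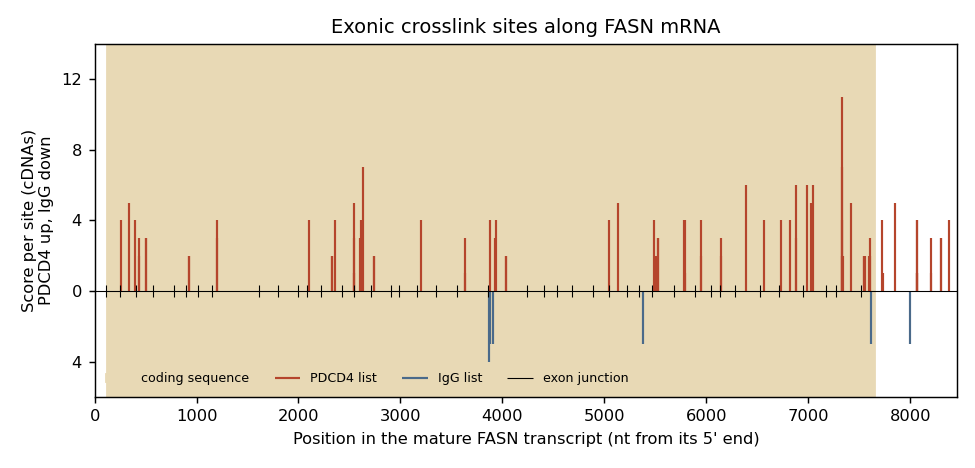
Score of each exonic site, in cDNAs, by position in the mature FASN transcript of 8464 nt; PDCD4 sites point up, IgG sites down, the shaded part is the coding sequence and short black ticks are exon junctions. PDCD4 sites occur over the whole length and reach 11 in exon 42 near the end of the coding sequence, while the highest IgG site reaches 4.

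Listed PDCD4 sites of FASN came in clusters. With sites within 20 nt joined, its 116 sites formed 58 clusters, of which 33 held at least 2 sites. In ACACA 82 clusters were formed and 6 held at least 2 sites, and in SREBF2 the numbers were 67 and 3. In SCD 13 of 31 clusters and in ACLY 8 of 52 held at least 2 sites. In the IgG list it was 1 of 10 in FASN, 3 of 76 in ACACA and 0 of 24 in SREBF2. For SCD it was 6 of 23 and for ACLY 4 of 31. FASN had its 116 sites in a gene of 19957 nt and ACACA 89 in 321845 nt, and this difference in site density was not corrected for. The lowest score of a site alone in its cluster also differed. In PDCD4 it was 4 in FASN, 3 in SCD and 2 in ACACA, ACLY and SREBF2, and in IgG it was 3 in FASN. PDCD4 sites of FASN with lower scores were thus listed only beside others, and this was not corrected for either. The FASN cluster with the most cDNAs was the one around the first sequence above (chr17:82079541-82079545), with 26 cDNAs at 5 sites. The next were in exon 16 (chr17:82088471-82088498), with 23 cDNAs at 7 sites, and in intron 3 (chr17:82094791-82094814), with 21 cDNAs at 9 sites. All 9 sites of the intron 3 cluster are followed by sequence that recurs in the genome, up to 9 times, and the IgG list had 1 site of 3 cDNAs inside it, whereas the clusters in exons 42 and 16 had neither. Without the largest cluster the FASN log2 ratio was 2.66, so it does not rest on that cluster.

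In SREBF2 the highest site belonged to a run of coding sites near the 5′ end of the reading frame. One cluster (chr22:41867036-41867048) had 10 cDNAs at 2 sites and the next (chr22:41867079-41867101) 17 cDNAs at 4 sites. The highest IgG site of SREBF2, with a score of 6, lay just downstream and is shown for comparison, with the listed nucleotide in capitals.
SREBF2, IgG list, score 6, coding sequence (chr22:41867118-41867146, plus strand): agggcaactcctatTcttcagccccgccc
The stretch was thus listed at other nucleotides in the control too.

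Sites were rare close to the 3′ ends of exons. This was already known of the lists as a whole, so it is not particular to these genes. In the 28 FASN exons of at least 150 nt before the last one, PDCD4 sites numbered 1 in the last 60 nt and 22 in the adjoining 60 nt upstream (log2 ratio -3.52, -9.83 to -1.83). The IgG list held no FASN site in either window. The scarcity depended on the window, with 1 site against 14 for 50 nt (-2.91) and 5 against 21 for 70 nt (-1.87). In 85 such exons of the 7 genes the PDCD4 numbers were 1 and 34, and the IgG numbers 1 and 7. The 6 genes other than FASN thus had no PDCD4 site in the last 60 nt of such exons. Intronic FASN sites lay in 7 introns, with 38 cDNAs at 16 sites in intron 3, of 1548 nt, including the 21 cDNAs of the recurring sequence. Of the 34 intronic PDCD4 sites of FASN, 2 lay within 100 nt of a 3′ splice site and 4 within 100 nt of a 5′ splice site.

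The base at the listed nucleotide was counted on the transcribed strand. Over the 423 PDCD4 sites of these genes it was U at 46.3% (41.6% to 51.1%), C at 29.6%, G at 13% and A at 11.1%. In IgG it was U at 47.5% (40.8% to 54.4%) and C at 20.1%. The nucleotide that follows was G at 2.84% of PDCD4 sites and 6.37% of IgG sites. FASN stood apart from the rest, with C at 45.7% (36.9% to 54.7%) and U at 32.8% (24.9% to 41.7%) of 116 sites, against 23.5% C and 51.5% U over the other 307. The 11 IgG sites of FASN were also C at 45.5% (21.3% to 72.0%), and without FASN the share of C was 23.5% in PDCD4 and 18.7% in IgG, with overlapping intervals (19.1% to 28.5% and 13.8% to 24.7%). The mature transcript of FASN is 33.8% C and 17.5% U. Those of SREBF1 (33.4% C and 19.4% U) and SREBF2 (30.3% and 21.7%) are near it, whereas that of HMGCS1, at the other end, is 18.2% C and 31.9% U.

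GC content moved with the ratio across all genes. Over 3824 protein-coding genes with at least 50 cDNAs, the GC content of the mature transcript correlated with the log2 ratio (Spearman 0.43, Pearson 0.42), given as a description across genes that share the same 2 lists. FASN has a GC content of 65.3%. The 185 genes within 2 percentage points of it had a median log2 ratio of 0.80 (quartiles 0.08 and 1.44), 39.5% of them were 2-fold higher in PDCD4, and 7, FASN itself counted, were at or above its ratio. The FASN ratio was thus above that of 96.2% of genes of similar GC content. SREBF1, with a GC content of 63.2%, was above 33.8% of its like, whose median was 0.70. For SREBF2 (58.0% GC, median 0.35) the share was 72.5%, for ACLY (52.0%, 0.14) 59.7%, for ACACA (48.9%, -0.14) 40.2%, for SCD (46.5%, -0.27) 63.1% and for HMGCS1 (39.0%, -0.44) 72.5%. The part of GC content in these ratios was not tested.

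**Figure D4:**
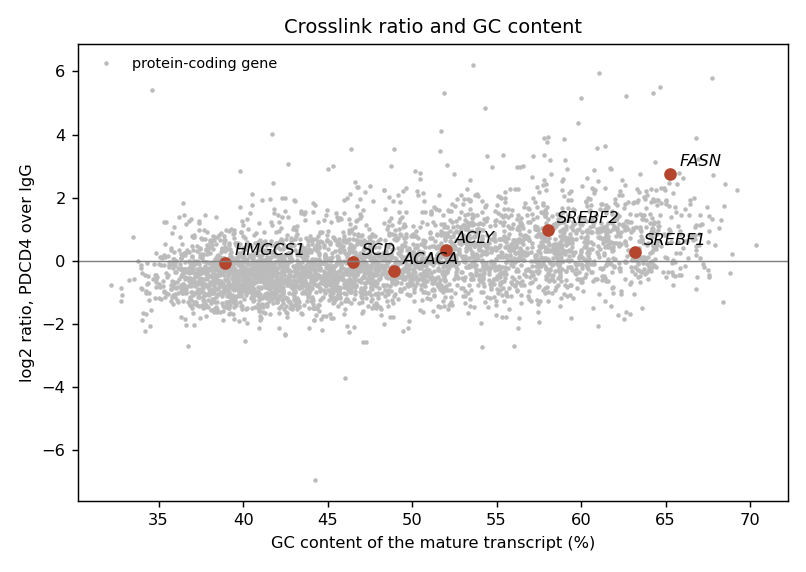
Log2 ratio of PDCD4 over IgG by GC content of the mature transcript, in percent; grey points are 3824 protein-coding genes with at least 50 cDNAs over both lists (genes with 0 IgG cDNAs at the value the pseudocount gives) and red points the 7 lipid synthesis genes. FASN (65.3%, 2.76) lies at the upper edge of the cloud, and SREBF1, of similar GC content (63.2%), lies within it at 0.27.

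The other genes of these pathways were read from 4 lists of 85 genes, of which 66 had at least 10 cDNAs. Of these 66, 13 (19.7%) were 2-fold higher in PDCD4 and 8 (12.1%) were 2-fold higher in IgG, against 18.8% and 18.1% of all genes, and the median log2 ratio was -0.14. In fatty acid synthesis, elongation and desaturation 2 of 17 genes were higher and 3 lower, with a median of -0.40. In sterol synthesis 5 of 19 were higher and 3 lower (median -0.14), in SREBP control and sterol uptake 3 of 13 and 1 (-0.32), and in glycerolipid synthesis 3 of 17 and 1 (0.02).

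Of the 31 list genes with at least 50 cDNAs, the highest were from each of the first 3 lists. MVK, the mevalonate kinase, had 52 PDCD4 cDNAs at 22 sites and 0 in IgG, which is at least 11.7-fold higher with a floor of 3 counts. SCAP, the sterol sensor that escorts SREBP proteins to the Golgi, had 90 cDNAs at 37 sites against 7 at 2, a log2 ratio of 2.94 (2.01 to 4.47). FADS2, the delta-6 desaturase, had 103 against 16 (2.05), FDPS, the farnesyl diphosphate synthase, 187 against 36 (1.78), and MBTPS1, the protease that makes the initial cut in SREBP, 83 against 18 (1.58). FASN lay between SCAP and FADS2 in log2 ratio.

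Among the lowest of the 31 were PISD, which makes phosphatidylethanolamine in mitochondria, with 59 cDNAs against 81 (-1.02), and ELOVL5, an elongase of polyunsaturated fatty acids, with 52 against 68 (-0.95). FBXW7, which marks SREBP proteins for degradation, had 50 against 60 (-0.83). Genes of the SREBP route were thus found at both ends.

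**Figure D5:**
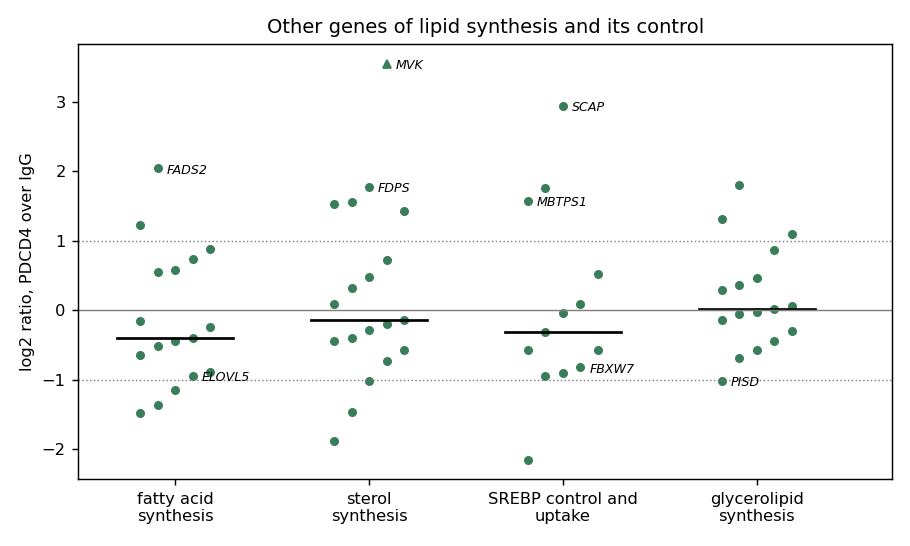
Log2 ratio of PDCD4 over IgG for the 66 genes with at least 10 cDNAs in 4 lists of lipid genes; black bars are list medians (-0.40, -0.14, -0.32 and 0.02), dotted lines mark 2-fold, and the triangle marks MVK at its lower bound of 3.55, since its IgG count is 0. MVK, SCAP (2.94) and FADS2 (2.05) are the highest named genes, and PISD (-1.02) is the lowest named gene.

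Genes taken as markers of basal breast epithelium were found among the listed sites. Luminal markers were not counted, so a basal against a luminal identity was not tested. KRT5 (352 PDCD4 and 74 IgG cDNAs), ITGB4, LAMB3, EGFR, CDH1, KRT17 and TP63 were found in both lists, and KRT14 had 3 cDNAs in PDCD4 and 0 in IgG. None of 7 markers of white blood cells, endothelium and adipocytes, including the adipocyte genes ADIPOQ, PLIN1 and FABP4, had a site in either list.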

How the data were processed

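Per the labels, 2 PDCD4 and 2 IgG immunoprecipitations of MCF10A cells were made. The authors called sites with iCount against the Ensembl GRCh38 genome (release 88) and deposited 1 site list per antibody, replicates pooled. The deposited score is a count of cDNAs per 1-nt site, not normalised. Removal of IgG sites from the PDCD4 replicates and a filter for scores greater than 5 are described in the methods. The deposited lists still held lower scores and 721 shared positions. Other read-processing settings are not given in the sources used here.

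Scores of all sites were summed per gene and divided by the list total, with a pseudocount of 1. Genes with at least 10 cDNAs over both lists were used. Regions and the MANE Select transcripts were those of GENCODE 44, and 626 of 627 member sites lay inside their gene. Shares have Wilson intervals and ratios exact (Clopper-Pearson) ones. The script was tested on simulated data. PCR copies may remain among counted cDNAs, so intervals cover counting error only. Sequences were read from the hg38 genome. The software was matplotlib 3.10.9, scipy 1.17.1, pandas 2.3.3 and numpy 2.4.6 under Python 3.11.15.

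Members and lists were chosen with earlier results of these data known. Named were the 7 members, the 5 highest and 5 lowest list genes with at least 50 cDNAs, the 5 genes most like FASN and sites with a score greater than 5 or the highest of a gene. Of these, 2 list genes and 1 sequence are not reported here. The IgG site of SREBF2 was chosen after its value was seen. Alternatives changed the score minimum, pseudocount, counting of sites, totals, regions and windows. Omission of sequences that recur in the genome and of the largest FASN cluster were chosen after seeing the data.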

Additional observations from a re-analysis of the deposited data

How the results depend on the processing

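No paired analysis was possible because each list pools its replicates, and for the same reason no replicate could be left out. The FASN log2 ratio of 2.76 was 3.90 at scores greater than 5 (57 cDNAs against 0), 2.03 with sites within 20 nt merged, and -2.13 at scores greater than 10. The last value rests on 1 PDCD4 site of 11 cDNAs against 0 and on list totals of 5268 and 100, so the sign is set by the pseudocount. The number of members at 2-fold or more, 1 of 7, was 2 of 3 at scores greater than 5 (FASN and SCD), 0 of 1 at scores greater than 10, and 2 of 7 both with numbers of sites and with merged sites, where SREBF2 joined FASN (1.03 and 1.06). The median of the lipid lists, -0.14, was 2.09 over the 2 genes left at scores greater than 5. The coding share of FASN, 63.9%, was 86.0% at scores greater than 5, 100% at scores greater than 10 and 52.0% with UTRs taken before coding sequence. The FASN exon-end log2 ratio, -3.52, was -1.58 at scores greater than 5 (2 sites), and the share in the last 5 of 10 parts of the coding sequence, 59.9%, was 85.7%. The share of sites at U, 46.3%, was 35.7% at scores greater than 5 (14 sites) and 40.2% at the next nucleotide. Other settings left the FASN ratio between 2.63 and 2.87. At scores greater than 5, ACLY, SCD, SREBF2 and HMGCS1 had log2 ratios of -5.28, 1.85, -0.44 and 0.85, each from at most 4 sites. Without sites whose following 29 nt recur, SCD had -0.33 and HMGCS1 -0.51, both within their intervals.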

Other observations

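The genes most like FASN were sought among 797 genes with at least 100 PDCD4 cDNAs, by the Euclidean distance over 4 measures, the log2 ratio and the shares of PDCD4 cDNAs in coding sequence, 3′UTR and intron. They were PRRC2A, ACADVL, NBEAL2, RPL5 and MYC, with distances of 0.26 to 0.38. PRRC2A, which encodes a large protein of RNA granules, had 187 cDNAs against 16, a log2 ratio of 2.90, with 77.5% in coding sequence. ACADVL, the very long-chain acyl-CoA dehydrogenase of mitochondrial fatty acid oxidation, had 131 against 14 (2.57), with 45.0% in coding sequence. NBEAL2, a gene of platelet granule formation, had 130 against 14 (2.56), with 46.9% coding and 41.5% intronic. RPL5, a ribosomal protein of the large subunit, had 190 against 16 (2.92), with 86.3% coding. MYC, a transcription factor of growth, had 106 against 8 (3.004), with 41.5% coding and 27.4% in its 3′UTR. No other member of the lipid genes was among these 5.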
